A study of Mus musculus with 12 samples.

Results

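The genes described here are 38 that encode the machinery by which synaptic vesicles dock, become ready and fuse at the presynaptic active zone, out of 54446 gene identifiers in each deposited count table. They were chosen by symbol for their known roles, with the synaptotagmins left out. All 38 had a row in both tables and passed the filter on low counts in every comparison. RNA was sequenced from 12 libraries in 4 groups of 3: hippocampus of Syt14 knockout (KO) mice, hippocampus of wild-type (WT) mice, cerebellum of the same KO mice and cerebellum of the same WT mice, so that 6 animals gave both tissues. The labels name no other allele and no treatment, and the sources used here do not give the age, sex and strain of the animals or the altered part of Syt14. Poly(A) RNA was selected and the libraries kept strand.

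At a nerve terminal the vesicle SNARE synaptobrevin pairs with syntaxin-1 and SNAP-25 of the plasma membrane, and the zippering of these proteins drives the membranes together. Munc13 and CAPS proteins prime the vesicles, RIM, RIM-binding protein, ELKS, liprin, Bassoon and Piccolo build the active zone where calcium channels and vesicles meet, and complexins hold the assembled SNAREs for the calcium signal that synaptotagmins read. Most of these proteins exist as several paralogues, and brain regions differ in which paralogue their synapses use. The study asked about the role of Syt14 in mood disorder and in motor coordination.

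Each library held between 24355572 and 34971359 counts. Levels are given as CPM, the counts of a gene relative to its library's total after TMM scaling over all 12 libraries, and 3 counts, taken as the floor, equal 0.0858 to 0.123 CPM before that scaling. Syt14 itself was read at 29.2, 28.0 and 30.6 CPM in KO hippocampus, against 38.5, 38.9 and 38.1 CPM in WT hippocampus. In the other tissue it stood at 30.6, 30.65 and 30.3 CPM in KO cerebellum, against 33.8, 33.3 and 38.1 CPM in WT cerebellum. The groups did not overlap in either tissue, yet across all genes tested neither was called (edgeR adjusted p = 0.686 and 0.644). Before adjustment the edgeR p was 3.88e-05 in hippocampus and 0.00897 in cerebellum. KO kept 76.1% and 86.9% of the WT level. Counts are summed over the whole gene, and those from exons outside the altered part, which is not given, check nothing. The tissue labels were checked by markers: all 11 markers of cerebellar granule neurons and all 10 of Purkinje cells were lower in hippocampus. Of 12 hippocampal neuron markers, 10 were higher and 1 was lower in WT hippocampus. The lower one, Calb1, is on the Purkinje cell list as well. Column headers carry 1 tag for all hippocampus libraries and another for all cerebellum libraries, so that the tissue and whatever that tag stands for cannot be told apart.

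RefSeq promoter windows on GRCm38.p6 were matched by symbol for 32 of the 38 genes, while Snap25, Vamp2, Rims2, Rims4, Syn3 and Syngr3 had none. The windows of Cplx2 and Rab3c lie farthest from the annotated gene start used for the counts, at 68793 bases and 790 bases, and both are counted among the 32. Several others were off by up to 164 bases (Rims1), among them that of Unc13c by 71 bases. The 250 bases before the start are printed here for the genes that differed most between the tissues in each direction, Stx1a, Rimbp2 and Unc13c, and for Sv2b and Sv2c, paralogues that lay on opposite sides of the tissue comparison and of the KO comparison in the cerebellum. They read 5′ to 3′ on the strand of the gene, with CG dinucleotides in capitals. Stx1a lies on the plus strand with its window at chr5:135023232-135023481, Rimbp2 on the minus strand at chr5:128953487-128953736, Unc13c on the minus strand at chr9:73969038-73969287, Sv2b on the minus strand at chr7:75309263-75309512 and Sv2c on the minus strand at chr13:96132578-96132827.
Stx1a: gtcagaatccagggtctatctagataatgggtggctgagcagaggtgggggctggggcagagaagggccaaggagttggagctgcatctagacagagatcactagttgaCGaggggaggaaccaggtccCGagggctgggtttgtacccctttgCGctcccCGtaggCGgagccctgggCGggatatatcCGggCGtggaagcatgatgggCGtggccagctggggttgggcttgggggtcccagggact
Rimbp2: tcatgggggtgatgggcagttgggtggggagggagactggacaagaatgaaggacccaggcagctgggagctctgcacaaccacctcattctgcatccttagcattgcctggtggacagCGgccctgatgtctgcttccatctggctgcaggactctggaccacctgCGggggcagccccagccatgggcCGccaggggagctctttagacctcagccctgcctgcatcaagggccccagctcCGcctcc
Unc13c: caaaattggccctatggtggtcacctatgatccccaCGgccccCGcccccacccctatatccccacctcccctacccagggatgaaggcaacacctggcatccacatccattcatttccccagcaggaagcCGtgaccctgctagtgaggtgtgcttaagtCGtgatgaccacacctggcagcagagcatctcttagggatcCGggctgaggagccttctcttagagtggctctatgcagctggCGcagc
Sv2b: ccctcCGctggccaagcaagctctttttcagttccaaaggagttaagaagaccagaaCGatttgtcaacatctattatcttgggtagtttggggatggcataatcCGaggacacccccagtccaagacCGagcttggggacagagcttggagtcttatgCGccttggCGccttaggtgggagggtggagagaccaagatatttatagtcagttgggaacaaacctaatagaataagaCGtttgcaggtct
Sv2c: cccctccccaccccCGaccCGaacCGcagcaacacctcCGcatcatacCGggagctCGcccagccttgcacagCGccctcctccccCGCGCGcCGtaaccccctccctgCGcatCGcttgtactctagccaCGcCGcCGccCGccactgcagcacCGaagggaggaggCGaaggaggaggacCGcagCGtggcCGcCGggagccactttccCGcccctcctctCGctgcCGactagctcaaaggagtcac
The Stx1a window held 9 CG dinucleotides, that of Rimbp2 4, that of Unc13c 6, that of Sv2b 7 and that of Sv2c 26. Over the 32 windows the median was 15.5, beside a median of 6 (quartiles 2 and 16) over 32851 RefSeq windows of the same length. The 21 windows of genes higher in WT hippocampus had a median of 14 (4 to 32), and the 6 of genes lower there a median of 17.5 (6 to 44), so the ranges overlapped. On either strand GGGCGG, the GC box, stood in 22 of 32 windows (68.8%) and in 32.7% of all. This motif contains a CG and is therefore not separate from the count above. CAGCTG, an E-box, stood in 8 (25% and 13% of all), CAGATG in 3 (9.38% and 14.4%), TGACG in 8 (25% and 17.8%) and TATAAA in 2 (6.25% and 12.4%). These matches are descriptions of letters in the windows.

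Most of these genes differed in level between the hippocampus and the cerebellum, in the same direction in both genotypes. In WT animals 24 of the 38 were higher and 9 were lower in hippocampus than in cerebellum, and in KO animals 23 were higher and 9 were lower. The widest gaps were those of Stx1a, the syntaxin of the plasma membrane, which stood 47-fold higher in WT hippocampus, and of Rimbp2, a RIM-binding protein, at 18.6-fold. In the other direction Unc13c, which encodes Munc13-3, was 6.05-fold lower in WT hippocampus and Rims3, a short RIM protein, 3.502-fold lower. The 33 genes called in WT animals are 86.8% of the 38, where 66.1% of all 18128 genes tested were called. By direction these are 63.2% higher and 23.7% lower, beside 33.1% and 33% of all genes. The 32 called in KO animals are 84.2%, beside 64.1% of 18200 genes, with 60.5% higher and 23.7% lower beside 31.6% and 32.5%. The median log2 fold change of the 38 genes, hippocampus over cerebellum, was 0.61 in KO and 0.67 in WT animals, while that of all genes was -0.025 and -0.02.

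The comparisons in KO and in WT animals use different animals and share no library. The same 32 genes were called in both, 23 higher and 9 lower. Cplx1 was called in WT animals alone, but not without WT hippocampus library 3 or WT cerebellum library 3 (adjusted p = 0.0897 and 0.0554) and not with library size alone (log2 0.02, adjusted p = 0.717), and the difference between the genotypes did not pass its own test (adjusted p = 0.952). Napa, Pclo, Rims1, Sv2a and Syngr1 were called in neither, and of the 38 log2 values 35 had the same sign, the exceptions being Rims1, Sv2a and Syngr1. Within animals, 22 genes were higher in hippocampus in 6 of 6 animals and 9 were lower in 6 of 6, with 7 mixed. These counts, and those of shared calls and signs, have no counterpart over all genes here. They are therefore not read as particular to the 38. In bulk tissue, fewer cells of a type and less RNA per cell cannot be told apart, and the tissues differ in neurons as well: 10 pan-neuronal markers summed to 4093 to 4136 CPM in KO hippocampus and 4057 to 4327 CPM in WT hippocampus, against 3014 to 3220 CPM in KO cerebellum and 3053 to 3200 CPM in WT cerebellum. Of those 10 markers, 4 were higher and 4 lower in hippocampus in either genotype, and their part in the results was not tested. Scaled by library size alone, the median of all genes shifted to -0.16 in both genotypes, 38.1% of the calls in KO animals and 38.9% of those in WT animals were higher, beside 49.3% and 50.1% with TMM factors, and 22 members were higher and 12 lower in either genotype. Under that scaling Napa, Syngr1 and Sv2a changed sign in WT animals and Cplx1, Napa and Rims1 in KO animals.

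**Figure D1:**
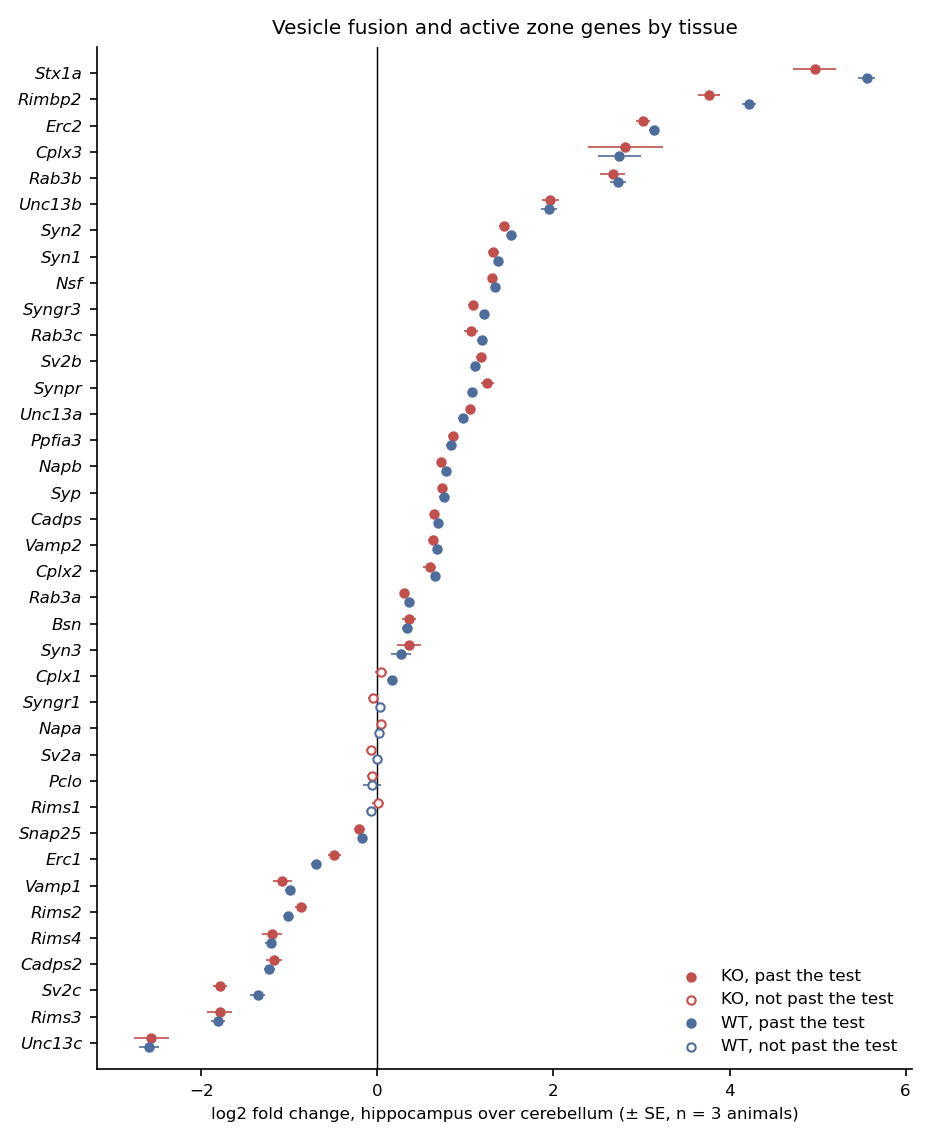
Log2 fold change of each gene, hippocampus over cerebellum, in KO and in WT animals, with SE (n = 3 animals); filled points passed the edgeR test (adjusted p under 0.05) and open points did not. Stx1a, Rimbp2 and Erc2 lie farthest to the right and Unc13c, Rims3 and Sv2c farthest to the left, in both genotypes.

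Among the SNAREs themselves, 2 of 4 were higher in hippocampus and 2 were lower. Stx1a (chromosome 5, 135023482 to 135051100, plus strand, GRCm38) was read at 87.2, 81.2 and 112 CPM in KO hippocampus, against 4.56, 2.83 and 1.66 CPM in KO cerebellum. In WT animals it stood at 90.4, 88.3 and 103 CPM in hippocampus and at 2.18, 2.05 and 1.79 CPM in cerebellum. Every hippocampal library thus lay far above every cerebellar one, with a log2 fold change of 4.97 ± 0.25 in KO (SE, n = 3, adjusted p = 1.18e-07) and 5.56 ± 0.10 in WT (adjusted p = 4.90e-14).

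Vamp2, the main synaptobrevin of forebrain synapses, was higher in hippocampus, with 871, 884 and 910 CPM in KO hippocampus against 590, 541 and 585 CPM in KO cerebellum. WT hippocampus held 880, 868 and 919 CPM, against 580, 543 and 549 CPM in WT cerebellum. Vamp1, the synaptobrevin prominent in hindbrain and spinal cord, had the opposite order, with 114, 145 and 149 CPM in KO hippocampus against 321, 283.2 and 256 CPM in KO cerebellum. In WT animals Vamp1 read 139, 130 and 141 CPM in hippocampus and 251, 287 and 275 CPM in cerebellum. No hippocampal library overlapped a cerebellar one of the same genotype for either gene. The log2 fold changes were 0.63 ± 0.05 in KO and 0.68 ± 0.05 in WT for Vamp2, and -1.08 ± 0.11 and -0.99 ± 0.06 for Vamp1. Snap25, the third partner of the complex, was by far the most abundant SNARE gene in CPM, with 1930 ± 149 CPM in KO hippocampus and 2214 ± 93.95 CPM in KO cerebellum, and its small tissue difference was a log2 fold change of -0.20 ± 0.06 in KO and -0.17 ± 0.05 in WT. Without 1 KO library (hippocampus 1, cerebellum 1 or cerebellum 3) or WT hippocampus library 1, Snap25 did not pass (adjusted p from 0.0532 to 0.061).

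Cplx2, the complexin of many excitatory synapses, was higher in hippocampus at 1738 ± 122 CPM in KO hippocampus and 1148 ± 111 CPM in KO cerebellum. Cplx1 differed little, with a log2 fold change of 0.04 ± 0.07 in KO and 0.16 ± 0.05 in WT. Cplx3, a complexin known from ribbon synapses of the retina, was scarce and 7.05-fold higher in KO hippocampus, with 3.98, 5.73 and 13.1 CPM against 1.07, 0.886 and 1.26 CPM in KO cerebellum. Its spread over hippocampal libraries was the widest among the 38, at a coefficient of variation of 63.4% in KO and 28.1% in WT hippocampus. Of the enzymes that take spent SNARE complexes apart, Nsf, the ATPase, was higher in hippocampus with 1245 ± 60.2 CPM in KO hippocampus and 502 ± 18.6 CPM in KO cerebellum, a log2 fold change of 1.31 ± 0.05 (1.34 ± 0.05 in WT). Napb, the neuronal SNAP that recruits Nsf, had 0.73 ± 0.05 in KO and 0.78 ± 0.04 in WT. Napa, the SNAP of all tissues, did not pass, with 0.04 ± 0.05 and 0.02 ± 0.04.

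Of the priming factors, 3 of 5 were higher in hippocampus and 2 were lower, and each family had a member on either side. Unc13a, the Munc13-1 of most glutamatergic synapses, stood at 547, 509 and 519 CPM in KO hippocampus against 250, 248 and 256 CPM in KO cerebellum, and at 495.5, 504.3 and 494 CPM in WT hippocampus against 269, 240 and 255 CPM in WT cerebellum. Unc13b stood at 86.3, 73.2 and 88.4 CPM in KO hippocampus against 23.5, 20.3 and 19.4 CPM in KO cerebellum, and at 73.1, 83.7 and 80.7 CPM in WT hippocampus against 17.2, 21.8 and 22.4 CPM in WT cerebellum. Unc13c (chromosome 9), which encodes the Munc13-3 known from cerebellar granule cells, ran the other way, with 23.7, 36.2 and 49.6 CPM in KO hippocampus against 214, 212 and 223 CPM in KO cerebellum, and 38.01, 30.4 and 44.4 CPM in WT hippocampus against 236, 201 and 247 CPM in WT cerebellum. Both hippocampal groups of Unc13a and Unc13b lay wholly above, and those of Unc13c wholly below, the cerebellar groups. The log2 fold changes in KO animals were 1.06 ± 0.05 for Unc13a, 1.97 ± 0.09 for Unc13b and -2.57 ± 0.20 for Unc13c.

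The CAPS genes, whose products prime vesicles and dense core granules, had a member on either side too. Cadps read 332, 344 and 343 CPM in KO hippocampus against 216, 218 and 216 CPM in KO cerebellum, and 345, 345 and 352 CPM in WT hippocampus against 214, 202 and 231 CPM in WT cerebellum. Cadps2, known for granule cells of the cerebellum that release neurotrophins, read 142, 127 and 110.5 CPM in KO hippocampus against 282, 261.5 and 307 CPM in KO cerebellum, and 130.3, 133 and 124 CPM in WT hippocampus against 319, 275.8 and 313 CPM in WT cerebellum. None of these ranges overlapped between tissues, and the log2 fold changes were 0.64 ± 0.04 in KO and 0.69 ± 0.05 in WT for Cadps, and -1.17 ± 0.09 and -1.22 ± 0.06 for Cadps2.

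In the RIM family, whose long members tether vesicles and calcium channels and whose short members lack the vesicle-binding part, 3 of 4 members were lower in hippocampus. Rims1, the principal long RIM, did not pass in either genotype, with 241 ± 17.9 CPM in KO hippocampus and 238 ± 17.05 CPM in KO cerebellum (SD, n = 3), and 222, 230.4 and 250.4 CPM in WT hippocampus against 255, 224 and 260.1 CPM in WT cerebellum. Without WT cerebellum library 2 it passed as lower in WT hippocampus (log2 -0.14, adjusted p = 0.0341). Rims2, the second long RIM, stood at 98.9, 103 and 113.5 CPM in KO hippocampus against 196.1, 174 and 203 CPM in KO cerebellum, and at 99.3, 103 and 102 CPM in WT hippocampus against 204, 193.6 and 217 CPM in WT cerebellum. Rims3 read 69.4, 101.0 and 107 CPM in KO hippocampus against 332, 287.5 and 339 CPM in KO cerebellum, and 96.6, 85.02 and 111 CPM in WT hippocampus against 365, 339 and 322 CPM in WT cerebellum. Rims2 and Rims3 were thus lower in each hippocampal library than in each cerebellar library of the same genotype. Rims4, the other short RIM, behaved like Rims3, with 71.3, 70.2 and 97.2 CPM in KO hippocampus against 182, 173 and 190.7 CPM in KO cerebellum, and 77.7, 71.2 and 85.03 CPM in WT hippocampus against 181 ± 5.50 CPM (SD, n = 3) in WT cerebellum. The log2 fold changes in KO animals were -0.87 ± 0.07 for Rims2, -1.79 ± 0.14 for Rims3 and -1.20 ± 0.11 for Rims4.

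Rimbp2 (chromosome 5, 128757791 to 128953486, minus strand), which links RIM to calcium channels, ran against its partners. It stood at 199, 193 and 222 CPM in KO hippocampus against 17.1, 16.4 and 11.5 CPM in KO cerebellum, and at 194.9, 204 and 189.4 CPM in WT hippocampus against 12.6, 9.93 and 9.45 CPM in WT cerebellum. The log2 fold change was 3.77 ± 0.13 in KO (adjusted p = 1.08e-08) and 4.22 ± 0.09 in WT (adjusted p = 1.78e-13).

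Among the scaffolds, the ELKS pair split between the tissues. Erc2, the neuronal ELKS also called CAST, was read at 253, 265 and 237 CPM in KO hippocampus against 33.7, 31.5 and 27.4 CPM in KO cerebellum, and at 251, 264 and 232 CPM in WT hippocampus against 28.1, 27.7 and 29.1 CPM in WT cerebellum. Erc1, the ELKS of most tissues, read 70.1, 70.6 and 67.2 CPM in KO hippocampus against 93.1, 89.1 and 108 CPM in KO cerebellum, and 67.6, 65.9 and 63.0 CPM in WT hippocampus against 111.5, 98.7 and 109 CPM in WT cerebellum. Erc2 was thus 8.12-fold higher in KO hippocampus and Erc1 1.401-fold lower, with no overlap between tissues. Of the exon bases of Erc1, 1919 of 16271 are shared with Gm44317 on the opposite strand, and the sources used here do not give the strand setting of the counting. Bsn, the giant scaffold Bassoon, was modestly higher in hippocampus, with a log2 fold change of 0.36 ± 0.08 in KO and 0.33 ± 0.05 in WT. Its relative Piccolo, Pclo, did not pass, with -0.06 ± 0.06 and -0.06 ± 0.10, but it passed as lower in hippocampus without WT cerebellum library 2 (log2 -0.22, adjusted p = 6.51e-04). Ppfia3, the liprin that organises the scaffold, had 0.86 ± 0.06 in KO and 0.83 ± 0.05 in WT.

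Vesicle-bound regulators leaned to the hippocampus. All 3 Rab3 genes, small GTPases that bind RIM, were higher there in both genotypes: Rab3a at 461 ± 11.4 CPM in KO hippocampus and 372 ± 10.3 CPM in KO cerebellum, Rab3c at 703 ± 44.4 CPM and 335 ± 35.9 CPM, and the scarcer Rab3b at 44.1 ± 4.27 CPM and 6.91 ± 1.43 CPM. Rab3b had the widest gap of the Rab3 genes, 6.37-fold in KO and 6.64-fold in WT. Of its 3524 exon bases, 317 are shared with 8030443G20Rik on the opposite strand. The synapsins, which hold the reserve pool of vesicles, were higher as well, Syn1 with 605 ± 3.75 CPM in KO hippocampus and 242 ± 17.2 CPM in KO cerebellum and Syn2 with 766 ± 36.3 CPM and 282 ± 10.1 CPM. Syn3 was scarce, at 14.1 ± 0.17 CPM in KO hippocampus and 10.9 ± 2.34 CPM in KO cerebellum. It passed narrowly in both genotypes (adjusted p = 0.0447 in KO and 0.0486 in WT), with ranges that overlapped in WT animals, and did not pass with the animal as a replicate block in WT (adjusted p = 0.0603). Limma-voom did not call Syn3 in WT either (adjusted p = 0.0517), nor did edgeR with upper-quartile factors (adjusted p = 0.0627 in KO and 0.0758 in WT) or with library size alone (adjusted p = 0.186 in KO and 0.318 in WT). Without any 1 of the 3 KO hippocampus libraries, KO cerebellum library 2 or 3, WT hippocampus library 1 or 2, or WT cerebellum library 1 or 2, it did not pass either (adjusted p from 0.0722 to 0.159). Of its 12282 exon bases, 1733 are shared with Timp3 on the opposite strand.

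Of the membrane proteins of the vesicle, 4 were higher in hippocampus, 1 was lower and 2 did not pass. Syp, or synaptophysin, stood at 887 ± 16.6 CPM in KO hippocampus and 529 ± 5.65 CPM in KO cerebellum, and its relative Synpr, or synaptoporin, known from mossy fibres of the hippocampus, at 149 ± 13.1 CPM and 62.6 ± 3.58 CPM. Of the 5211 exon bases of Syp, 875 are shared with Gm14703 on the opposite strand. Further members share such bases too, such as Pclo with 925 of 22457. Syngr3, a synaptogyrin, had a log2 fold change of 1.09 ± 0.06 in KO and 1.22 ± 0.05 in WT, while Syngr1 did not pass, with -0.05 ± 0.06 and 0.03 ± 0.05. In the SV2 family, transporter-like glycoproteins of the vesicle, the members went 3 ways. Sv2a, which binds the antiepileptic drug levetiracetam, did not pass, with 463, 497 and 498 CPM in KO hippocampus against 512, 497 and 521 CPM in KO cerebellum, and 499.9, 483 and 509.6 CPM in WT hippocampus against 503, 485 and 506 CPM in WT cerebellum. Sv2b was higher in hippocampus, with 514, 562 and 511 CPM in KO hippocampus against 231, 223 and 245 CPM in KO cerebellum, and 559, 578 and 566 CPM in WT hippocampus against 272, 249.6 and 268.2 CPM in WT cerebellum. Sv2c, a receptor of botulinum neurotoxin A, was lower there, with 37.8, 35.4 and 42.8 CPM in KO hippocampus against 122.5, 134 and 141.5 CPM in KO cerebellum, and 42.5, 37.7 and 44.2 CPM in WT hippocampus against 98.1, 102 and 119.7 CPM in WT cerebellum. The groups of Sv2b and of Sv2c did not overlap between tissues, and those of Sv2a did.

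**Figure D2:**
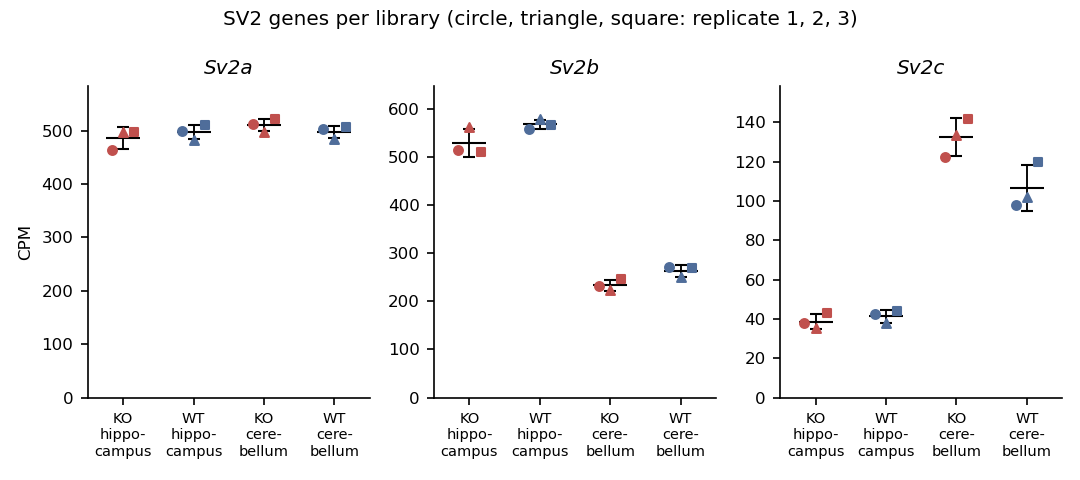
CPM of Sv2a, Sv2b and Sv2c in each library, with the mean and SD of each group (n = 3). Sv2a is level across the groups, Sv2b is at 511 CPM or more in every hippocampal library and 272 CPM or less in every cerebellar one, and Sv2c is 98.1 CPM or more in every cerebellar library and 44.2 CPM or less in every hippocampal one.

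To compare paralogues with each other, levels were divided by the exon length of each gene and given as a share of the family (mean ± SD, n = 3). The leading member changed between the tissues in 4 of 13 families, in both genotypes. Unc13a made up 84.2 ± 2.91% of the Munc13 transcripts in KO hippocampus and 83.6 ± 1.44% in WT hippocampus, while Unc13c led in cerebellum with 54.1 ± 0.32% in KO and 55.05 ± 1.83% in WT. By all exons the summed level of the Munc13 genes was nearly level, at 49.4 ± 1.52 CPM per kb in KO hippocampus and 45.5 ± 0.96 in KO cerebellum. In the WT tissues it was 47.2 ± 0.48 and 47.0 ± 3.62 CPM per kb. Cadps made up 63.2 ± 3.25% of the CAPS transcripts in KO hippocampus, against 32.8 ± 1.91% in KO cerebellum, where Cadps2 led. Rims1 led the RIM family in hippocampus (46.6 ± 2.24% in KO) and Rims3 in cerebellum (31.4 ± 0.59% in KO), and the summed RIM level was lower in hippocampus, at 70.5 ± 8.07 CPM per kb in KO hippocampus and 127.5 ± 8.92 CPM per kb in KO cerebellum. Erc2 held 85.8 ± 0.37% of the ELKS transcripts in KO hippocampus, against 34.9 ± 4.40% in KO cerebellum. Here the sum itself was 3.30-fold higher in KO hippocampus and 3.14-fold higher in WT hippocampus. With the longest coding transcript as the length, an alternative added with the data in view, these 4 families changed their leader again. The synapsins then did so too, with Syn2 ahead in hippocampus and Syn1 in cerebellum of both genotypes. For Munc13 the change of leader rests on the length: by the longest transcript Unc13c held 48.67% against 48.50% for Unc13a in KO cerebellum, a near tie, and 49.61% against 47.72% in WT cerebellum. The nearly level Munc13 sum is given for all exons alone. Unc13b has 22746 exon bases but 14754 in its longest transcript, and Unc13a 12623 but 10255.

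In other families shares differed between the tissues as well. Vamp1 held 5.42 ± 0.64% of the synaptobrevin transcripts in KO hippocampus and 15.8 ± 1.51% in KO cerebellum, and Sv2c held 2.32 ± 0.25% and 9.02 ± 0.55% of the SV2 transcripts. Rab3a, Syp, Syngr1, Cplx2, Bsn and Sv2a led their families in all 4 groups under both lengths. Syn1 and Syn2 traded the lead in hippocampus with the length used, and Napa and Napb in WT cerebellum, so no order is read for these. Per length of all exons, Cplx2 and Snap25 were the most abundant of the 38 in every group. Cplx2 was ahead in hippocampus (353 CPM per kb in KO, against 284 for Snap25). Snap25 was ahead in cerebellum (326 CPM per kb in KO, against 233 for Cplx2). This order rests on the length: Snap25 has 6791 exon bases but 2116 in its longest coding transcript, and Cplx2 has 4928 by either. No ranks were made with the longest transcript, so ranks are read for all exons alone. By all exons, Cplx3, Syn3 and Unc13b filled the last 3 ranks in hippocampus, Unc13b with 22746 exon bases and 14754 in its longest transcript. In cerebellum Stx1a joined these at the bottom, at rank 35 of 38 in KO and 37 in WT, against rank 19 in hippocampus of either genotype. All 38 together took 1.54 ± 0.02% of the counts in KO hippocampus and 1.57 ± 0.02% in WT hippocampus, against 1.28 ± 0.04% in KO cerebellum and 1.28 ± 0.03% in WT cerebellum.

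**Figure D3:**
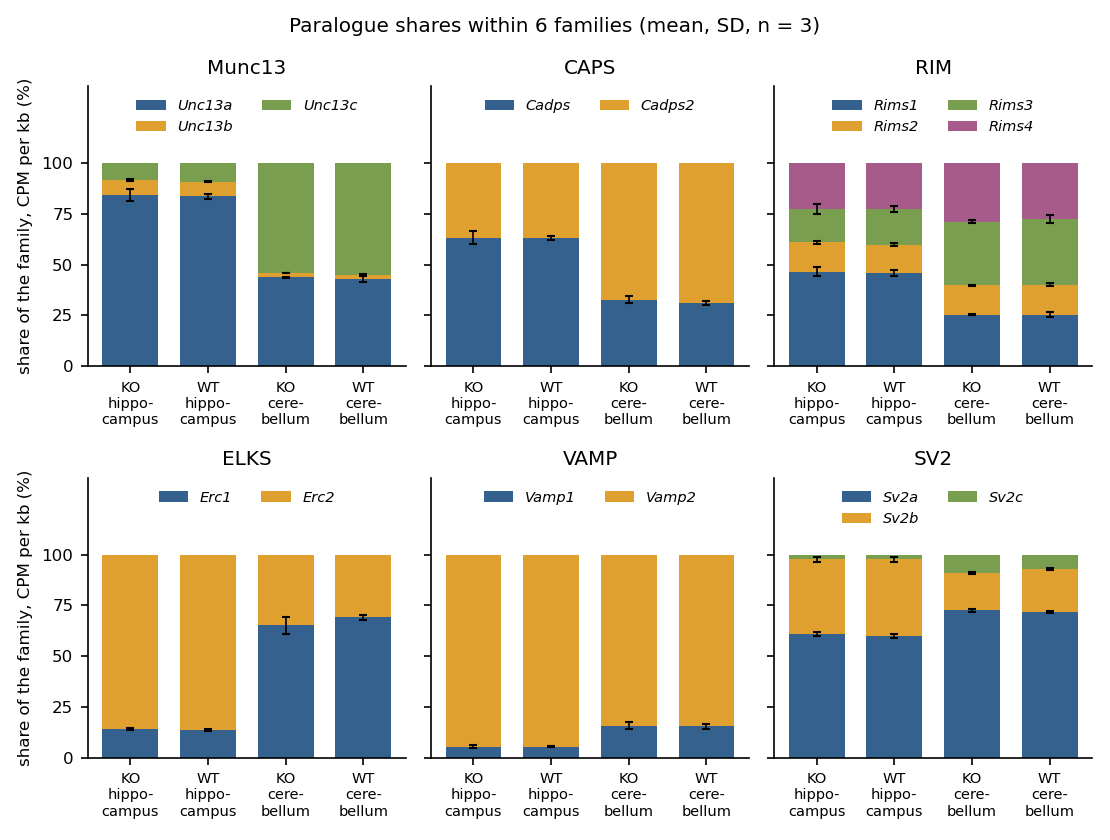
Share of each paralogue in its family, in CPM per kb of exon (mean of 3 libraries, error bars SD), for 6 families in the 4 groups. The lead passes from Unc13a, Cadps, Rims1 and Erc2 in hippocampus to Unc13c, Cadps2, Rims3 and Erc1 in cerebellum, and KO and WT columns of a tissue look alike.

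Other genes of the vesicle cycle were read from lists, beside 33.1% of all genes tested that were higher and 33% that were lower in WT hippocampus. Of 48 tested among 50 further fusion and active zone genes, 24 were higher and 15 lower in WT hippocampus, with a median log2 fold change of 0.16. Among those higher were Stxbp6, or amisyn (log2 fold change 3.23), and Rab27b, a vesicle GTPase (2.94). The largest log2 fold changes downward were those of Unc13d, the Munc13-4 of immune cells (-3.00), Lin7a, an adaptor of synaptic scaffolds (-2.34), and Ppfia4, another liprin (-1.45). Of 28 endocytosis genes 20 were higher and 5 lower, led by Sh3gl3, an endophilin (2.25), and Dnm3, a dynamin (-0.81). Of 16 subunits of the vesicular proton pump 13 were higher, with Atp6v1g2 (0.86) the widest, and 1 lower, Atp6v1g1 (-0.33). Among 7 vesicular transporters tested, 2 were higher and 3 lower. Slc17a7, the glutamate transporter VGLUT1, was higher (1.52). So was the scarce Slc17a8, or VGLUT3, at 6.36 ± 0.81 CPM in WT hippocampus and 0.108 ± 0.10 CPM in WT cerebellum. Slc32a1, the GABA transporter, was among those lower (-1.01).

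Between the genotypes, no member differed in the hippocampus by the test. Of the 38, 0 passed, where 0% of 17693 genes did, and 0 had an unadjusted p under 0.05, beside 4.34% of all genes. DESeq2, limma-voom and all other settings called 0 members as well. The log2 fold changes, KO over WT, ran from -0.13 (Rab3b) to 0.11 (Cplx3) with a median of -0.03, and the median of all genes was 0.00. For 35 of 38 the 95% interval of the change stayed within 1.25-fold in either direction, and for 37 within 1.5-fold. Cplx3, Unc13c and Rims3 had wider intervals, that of Cplx3 reaching from -0.64 to 0.86. KO and WT ranges stood apart in 4 genes (10.5%), as they did in 9.81% of all genes.

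The lowest unadjusted p in hippocampus belonged to Sv2b, Pclo and Unc13a. Sv2b read 514, 562 and 511 CPM in KO hippocampus, against 559, 578 and 566 CPM in WT hippocampus, which overlap, with a log2 fold change of -0.10 ± 0.04 (SE, n = 3, edgeR adjusted p = 0.995). Pclo read 361, 368.4 and 367 CPM in KO, against 377, 381.5 and 400.1 CPM in WT, and Unc13a 547, 509 and 519 CPM in KO, against 495.5, 504.3 and 494 CPM in WT. In these 2 genes the groups did not overlap, with log2 fold changes of -0.08 ± 0.04 and 0.08 ± 0.04 and an adjusted p of 0.995 each. The other 2 genes without overlap, Napa and Cadps, each had a log2 fold change of -0.03 ± 0.04.

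In the cerebellum, 0 of the 38 passed, where 0.0113% of 17733 genes (2 genes, neither a member) did. Sv2c had the lowest p. It read 122.5, 134 and 141.5 CPM in KO cerebellum, against 98.1, 102 and 119.7 CPM in WT cerebellum. Every KO library lay above every WT library, though only just, and the log2 fold change was 0.31 ± 0.08 (SE, n = 3, 95% interval 0.15 to 0.48) or 1.24-fold, with an edgeR adjusted p of 0.518 (0.00186 before adjustment). DESeq2 called it (adjusted p = 0.03), as did the fit with the replicate number as a block (log2 0.32, adjusted p = 0.0251), where these call 0.214% and 0.203% of all genes, and the fit without a filter on low counts called both it and Rimbp2 (adjusted p = 4.85e-06 and 0.00104), where it calls 1.29% of all genes. The block pairs KO and WT animals by replicate number, a link that the labels do not give. Over the 14 alternative settings the log2 fold change of Sv2c ranged from 0.26 to 0.41 and its adjusted p from 4.85e-06 to 0.97.

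Sv2b, its more abundant paralogue, went the other way in the same libraries, with 231, 223 and 245 CPM in KO cerebellum against 272, 249.6 and 268.2 CPM in WT cerebellum. These groups did not overlap either, and the log2 fold change was -0.18 ± 0.05 (95% interval -0.29 to -0.06, edgeR adjusted p = 0.628). DESeq2 and the blocked fit did not call Sv2b (adjusted p = 0.276 and 0.143). The ratio of Sv2c to Sv2b in CPM was 0.53, 0.601 and 0.577 in KO cerebellum, against 0.36, 0.408 and 0.446 in WT cerebellum, and in hippocampus it was 0.0736, 0.0629 and 0.0837 in KO, against 0.0761, 0.0653 and 0.078 in WT. This ratio was looked at after the values of both genes were seen. It separates the cerebellar groups because each of its 2 genes already does, and it gets no test. Of the 33 paralogue shares, 3 (9.09%) did not overlap between genotypes in cerebellum, beside 11.9% of all genes by CPM. They are those of Rims4 and of Sv2b and Sv2c, which belong to 1 family. Sv2c made up 9.02 ± 0.55% of the SV2 transcripts in KO cerebellum and 7.33 ± 0.67% in WT cerebellum.

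Rimbp2 and Synpr were the other 2 members with an unadjusted p under 0.05 in cerebellum, which made 4 of 38 (10.5%), beside 6.77% of all genes. Rimbp2 read 17.1, 16.4 and 11.5 CPM in KO cerebellum, against 12.6, 9.93 and 9.45 CPM in WT cerebellum, groups that overlap, with a log2 fold change of 0.50 ± 0.16 (SE, n = 3, edgeR adjusted p = 0.654). Synpr read 63.1, 58.8 and 65.8 CPM in KO cerebellum, against 71.3, 66.0 and 67.2 CPM in WT cerebellum, just apart from each other, with -0.12 ± 0.06 (adjusted p = 0.733). With Sv2c and Sv2b it made 3 genes without overlap (7.90%), where 11.9% of all genes had none. Stx1a, scarce in this tissue, read 4.56, 2.83 and 1.66 CPM in KO cerebellum, against 2.18, 2.05 and 1.79 CPM in WT cerebellum. The groups overlap, and its log2 fold change of 0.59 ± 0.31 had an adjusted p of 0.767.

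Markers of neighbouring tissue varied widely among the cerebellar libraries. A list of 9 brainstem markers, such as Dbh and Slc6a2 of noradrenergic neurons, summed to 33.5, 52.0 and 7.63 CPM in KO cerebellum, against 15.6, 10.8 and 10.5 CPM in WT cerebellum. Of these 9, 5 passed the filter and their KO over WT values centred on a log2 median of 2.68. Of the 5, 4 had an unadjusted p under 0.05, while 0 passed after adjustment over all genes. Rimbp2 and Stx1a, both scarce in cerebellum, were highest in KO libraries 1 and 2, where these markers were highest. Both genes were highest in KO library 1, and the marker sum in KO library 2. Without KO library 3, the poorest in the markers, Rimbp2 reached 0.66 on the log2 scale (edgeR adjusted p = 0.0732). Without WT library 1 it was at 0.63 (adjusted p = 0.893). Without any other cerebellar library it lay between 0.39 and 0.45. Sv2c was highest in KO library 3 and, with that library left out, had 0.27 (adjusted p = 0.274). A list of 6 choroid plexus markers summed to 965, 1767 and 25.8 CPM in KO cerebellum, against 1940, 2651 and 1045 CPM in WT cerebellum, and 10 Purkinje cell markers to 7752, 8777 and 9572 CPM in KO, against 8286, 7884 and 9740 CPM in WT. Sv2c was highest, within each genotype, in the library with the highest Purkinje sum, while that sum overlapped between genotypes. One of the 2 genes called in cerebellum was Cck, a neuropeptide gene on the list of 12 hippocampal neuron markers, at 52.5 ± 2.88 CPM in KO and 28.4 ± 2.21 CPM in WT (SD, n = 3, log2 0.89, adjusted p = 0.00157), while that list summed to 1476, 1543 and 1625 CPM in KO and 1553, 1467 and 1683 CPM in WT. The sum of 7 microglial markers did not overlap between genotypes, at 133.7, 142.8 and 132.1 CPM in KO cerebellum against 117.6, 114.7 and 122 CPM in WT cerebellum, with 3 of the 7 at an unadjusted p under 0.05. Nor did that of 8 oligodendrocyte markers, at 6415, 6856 and 6226 CPM in KO cerebellum against 5719, 6113 and 5893 CPM in WT cerebellum, with 4 of the 8 under 0.05 unadjusted. In hippocampus the sums of 7 endothelial and pericyte markers (273.4 to 301 CPM in KO, 310.4 to 347 CPM in WT) and of the hippocampal neuron markers (2257 to 2329 CPM in KO, 2355 to 2404 CPM in WT) did not overlap. There 4 of 7 and 1 of 12 had an unadjusted p under 0.05, as had 3 of 7 meningeal markers, whose sums overlapped. These lists are named out of all marker lists for such values. Over all single genes, 11.9% did not overlap and 6.77% had an unadjusted p under 0.05 in cerebellum. In hippocampus these shares were 9.81% and 4.34%. None of the microglial, oligodendrocyte and endothelial markers passed between genotypes after adjustment. None of the 9 brainstem markers was at 0 in all cerebellar libraries. The part of these markers in the KO results was not tested.

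**Figure D4:**
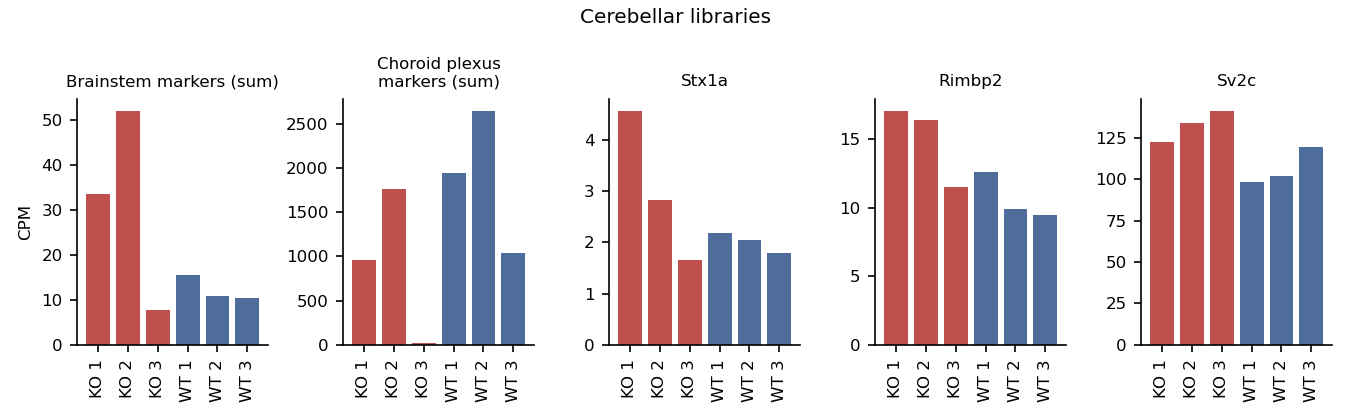
Bars give the CPM in each cerebellar library of the brainstem markers (sum of 9), the choroid plexus markers (sum of 6), Stx1a, Rimbp2 and Sv2c, KO libraries before WT libraries. Stx1a and Rimbp2 are highest in KO libraries 1 and 2, as the brainstem markers are, while Sv2c is highest in KO library 3.

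The other members differed little in cerebellum. The log2 fold changes had a median of 0.01 over the 38, beside 0.00 for all genes. The 95% interval stayed within 1.25-fold for 31 of 38 and within 1.5-fold for 35. The exceptions were Stx1a (log2 -0.10 to 1.27), Cplx3 (-0.58 to 0.63) and Rimbp2 (0.14 to 0.85). Snap25, Vamp2 and Unc13a, core parts of the machinery, had log2 fold changes of -0.04 ± 0.06, 0.04 ± 0.05 and -0.02 ± 0.05. Of the 4 lists of other vesicle cycle genes, 0 members passed in either tissue, where 48 further fusion genes, 28 endocytosis genes and 16 proton pump subunits were tested in each.

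**Figure D5:**
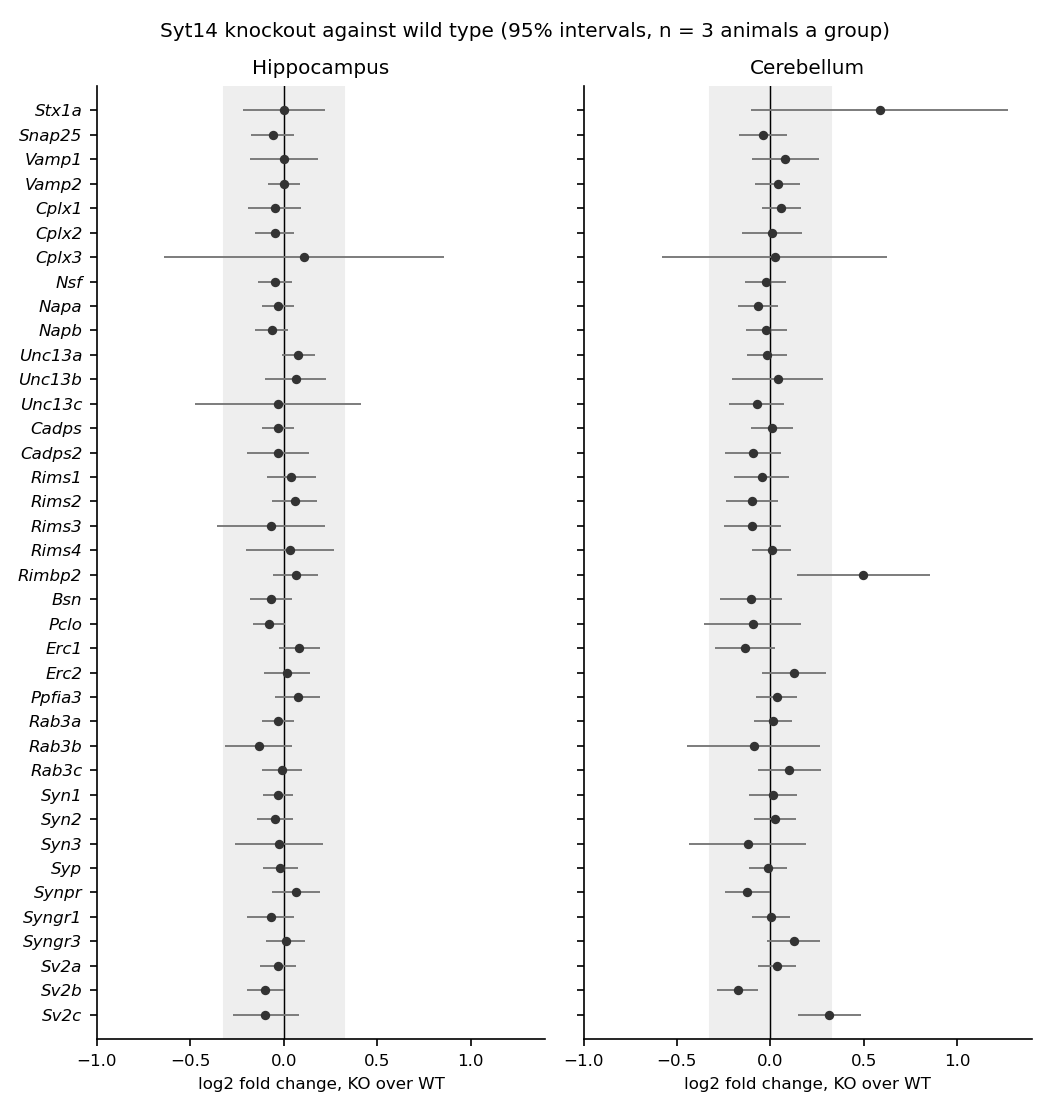
Log2 fold change of each gene, KO over WT, in hippocampus (left) and cerebellum (right), with 95% intervals (n = 3 animals a group); the grey band marks changes within 1.25-fold. In cerebellum Sv2c, Rimbp2 and Stx1a sit to the right and Sv2b to the left, and no gene passed the test over all genes in either tissue.

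Whether the KO effect differed between the tissues was tested directly over all 12 libraries, as the effect in hippocampus minus that in cerebellum. No member passed, where 0.0105% of 19027 genes did (2 genes, neither a member). Sv2c came closest, with -0.41 ± 0.12 (95% interval -0.68 to -0.15, edgeR adjusted p = 0.808), followed by Rimbp2 with -0.44 ± 0.17 (adjusted p = 0.897). With Erc1 (0.22 ± 0.10, adjusted p = 0.919) and Synpr (0.18 ± 0.09, adjusted p = 0.919), 4 of 38 (10.5%) had an unadjusted p under 0.05, beside 5.34% of all genes. In hippocampus Sv2c read 37.8, 35.4 and 42.8 CPM in KO, against 42.5, 37.7 and 44.2 CPM in WT, so the genotypes overlapped there. The interval of the difference stayed within 1.5-fold for 34 of 38 genes, the others being Stx1a, Cplx3, Rimbp2 and Sv2c.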

How the data were processed

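Strand-specific poly(A) RNA-seq libraries were made from hippocampus and cerebellum of 3 KO and 3 WT mice. The authors deposited 1 table of raw gene counts per tissue; per the submitters' processing notes these came from Trimmomatic 0.39, STAR 2.7.10 and featureCounts 2.0.3 on mm10 (GRCm38), with annotation release and strand setting not given in the sources used here. Of 54446 identifiers, 54409 were matched to GENCODE M21 for names and exon lengths. The 38 genes, the pathway lists and the marker lists were chosen with earlier results of these data known.

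Genes were kept by filterByExpr (minimum count 10, minimum total 15) and tested with edgeR 4.0.16 quasi-likelihood fits with TMM factors in R 4.3.3. Each comparison was fitted on its own 6 libraries, and the difference between tissues on all 12. Called means a Benjamini-Hochberg adjusted p under 0.05 over all genes tested. SE is the log2 fold change divided by the root of F, and intervals cover 95%. The common biological coefficient of variation was 6.76% to 8.97%. Alternatives were other scalings, no filter, DESeq2 1.42.0, limma-voom 3.58.1, a fit of all 12 libraries, a replicate block and leaving out each library. Tables and figures used Python 3.11.15, pandas 2.3.3, numpy 2.4.6, scipy 1.17.1 and matplotlib 3.10.9. The fits were tested on simulated counts. Libraries of a group come from separate animals. Precision is limited by 3 animals a group.

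In the tissue comparisons a number marks the same animal (correlation of deviations 0.02 to 0.051 in KO, 0.053 to 0.133 in WT). KO and WT libraries with the same number are different animals, and the labels give no link between them. In cerebellum their deviations correlated at 0.12 to 0.311 in every pair. The main fits used no block, and pairing by number entered the replicate block alternative alone. All members could be named; per-library values went to the 3 lowest p in each KO comparison and to families split between the tissues, and from each pathway list at most 3 called genes of largest fold in each direction. Some genes of these lists are not reported here.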

Additional observations from a re-analysis of the deposited data

How the results depend on the processing

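Among members, the KO comparison in hippocampus called 0 under every setting tried. In cerebellum it called 0, but 1 with DESeq2, 2 without a filter on low counts and 1 with the replicate block, and the difference between tissues called 0, but 3 without a filter. Over all genes, the KO comparison in hippocampus called 0, but 4 with DESeq2, 77 without a filter and 2 with the replicate block, and from 0 to 2 when each library was left out. In cerebellum it called 2, but 38 with DESeq2, 4 in a fit of all 12 libraries, 417 without a filter, 36 with the replicate block and from 2 to 33 when each library was left out, the most without KO library 3. The difference between tissues called 2 genes, but 11 with DESeq2, 275 without a filter and from 2 to 44 when each library was left out, the most without KO cerebellum library 3. In hippocampus same-numbered KO and WT libraries share only a number (correlations -0.011 to 0.138). With the replicate block the tissue comparisons called 32 members in KO and 32 in WT, and beyond Syn3 in WT and Sv2c in KO cerebellum the block changed no call of a member. Members called between tissues ranged over all settings from 30 to 34 in KO and from 31 to 34 in WT. With library size alone Pclo, Sv2a and Syngr1 in KO and Napa, Rims1 and Sv2a in WT were called as lower in hippocampus. Signs changed only for members that were not called in that comparison with TMM factors: with library size alone, a setting added after the data were seen, Napa was at -0.095, Cplx1 at -0.095 and Rims1 at -0.126 in KO, and Napa at -0.121, Syngr1 at -0.106 and Sv2a at -0.137 in WT. With upper-quartile factors Rims1 was at -0.016 in KO, and Napa at -0.013 and Sv2a at -0.029 in WT, and Sv2a was at -0.005 in WT without a filter. With each library left out in turn, Pclo ranged from -0.121 to 0.003 and Rims1 from -0.049 to 0.046 in KO, and Pclo from -0.216 to 0.020, Sv2a from -0.023 to 0.023, Napa from -0.016 to 0.038 and Syngr1 from -0.010 to 0.070 in WT. The cause was not tested for any of these changes. Scarce members such as Cplx3 and cerebellar Stx1a have wide intervals.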
